A study of Mus musculus with 12 samples.

Results

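The 36 genes described here mark astrocytes, the Bergmann glia of the cerebellum, or the reaction of these cells to injury and inflammation. They were taken by symbol from 2 gene count tables, 1 per tissue, with the glutamate transporters left aside, and all 36 were found among the 54446 genes listed. The study measured polyadenylated RNA from cerebellum and hippocampus of Syt14 knockout and wild-type mice. Syt14 encodes synaptotagmin 14, which belongs to a family of proteins of vesicle and membrane traffic. The 4 groups were knockout cerebellum, wild-type cerebellum, knockout hippocampus and wild-type hippocampus, with 3 libraries each. The library names carry an animal number, by which the same 3 knockout and the same 3 wild-type mice gave both tissues. The labels give the genotype as a Syt14 knockout without naming the allele or the exons removed, and the sources used here state no age, sex or strain.

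Astrocytes clear potassium, water and neurotransmitter from around synapses, supply neurons with metabolites and are joined to each other by gap junctions. Bergmann glia are the astrocytes of the cerebellar cortex: their cell bodies lie among the Purkinje cells and their processes span the molecular layer. When tissue is damaged or inflamed, astrocytes make more intermediate filament protein, mainly GFAP, and switch on secreted acute-phase and protease inhibitor genes. That response is called glial reaction, and its strength differs among brain regions.

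The libraries held 24355572 to 34971359 counts assigned to genes, so 3 counts, taken here as a floor, correspond to 0.0858 to 0.123 CPM, that is counts scaled to library size. A cell type marker is given below as detected in a group where at least 1 of its libraries had a count. Levels below are CPM scaled by trimmed mean of M-values (TMM) factors over all 12 libraries, and a level is compared between genes only after division by exon length. Tests are edgeR's quasi-likelihood test on the counts, two-sided, with Benjamini-Hochberg adjustment over all genes tested, and a gene is called where the adjusted p is under 0.05. Tests across tissues treat the libraries as independent and do not use the pairing by animal. Syt14 itself had 30.6, 30.7 and 30.3 CPM in knockout cerebellum, against 33.8, 33.3 and 38.2 CPM in wild-type cerebellum. It had 29.2, 28.0 and 30.6 CPM in knockout hippocampus, against 38.5, 38.9 and 38.1 CPM in wild-type hippocampus. The knockout libraries were the lower ones in both tissues without overlap, but Syt14 was not called in either (edgeR adjusted p = 0.644 in cerebellum and 0.686 in hippocampus), and since the removed part of the gene is not stated, a count over the whole gene checks the genotype labels only in part.

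The libraries carried the markers of their labelled tissue. The 6 granule cell markers summed to between 4575 and 5548 CPM in knockout cerebellum and between 4884 and 5375 CPM in wild-type cerebellum, against 40.2 to 67.2 CPM in knockout hippocampus and 44.6 to 66.0 CPM in wild-type hippocampus. Of 4 astrocyte genes outside the set (Slc1a2, Slc1a3, Slc7a10 and Ndrg2), all were detected in every group, and their mean log2 CPM lay between 8.59 and 8.79 in all 12 libraries. Their summed level, which follows the most abundant of them, was lower in cerebellum, at 2769 to 2990 CPM in knockout and 2848 to 3125 CPM in wild-type cerebellum, against 4266 to 4711 CPM in knockout and 4328 to 4948 CPM in wild-type hippocampus. The knockout cerebellum libraries differed in tissue make-up. The summed level of 8 markers of brainstem noradrenergic and cholinergic neurons was 31.9, 50.1 and 7.53 CPM in knockout cerebellum, against 15.2, 10.5 and 10.4 CPM in wild-type cerebellum. At least 1 count was found for 8, 8 and 6 of these 8 markers in knockout cerebellum and for 8, 8 and 7 in wild-type cerebellum. Library 3 of knockout cerebellum was also nearly without choroid plexus transcripts, with 27.5 CPM over 8 markers against 979 and 1796 CPM in the other knockout libraries and 1067 to 2700 CPM in wild-type cerebellum. Results that move with these differences are given below with and without libraries 1 and 2 of knockout cerebellum, the pair high in brainstem markers. Without that pair only library 3 of knockout cerebellum is left.

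Which tissue a mouse brain sample came from was by far the larger difference in these genes, and which of them were higher in cerebellum was nearly the same in knockout and wild-type animals. In knockout animals 32 of the 35 genes tested were called between the tissues, 23 higher and 9 lower in cerebellum, and in wild-type animals 33 of 35 were called, 24 higher and 9 lower. Of all genes tested, 64.1% were called in knockout and 66.1% in wild-type animals, in nearly equal parts higher (32.5% and 33%) and lower (31.6% and 33.1%) in cerebellum. The glial genes were called more often than the table as a whole. Their median log2 fold change of cerebellum over hippocampus was 0.60 in knockout and 0.68 in wild-type animals, against 0.03 and 0.02 over all genes; several were listed as markers of Bergmann glia, so part of this lean is fixed by the choice of genes. By direction, 23 genes were higher in cerebellum in both genotypes, 9 were lower in both and none went opposite ways. Fabp7 was called in wild-type animals only, Gja1 and Mt1 in neither, and Lcn2 had too few counts to be tested. In such bulk samples more astrocytes and more RNA of a gene per astrocyte cannot be told apart. Tissue also goes with a tag in the column headers of the count tables whose meaning is not given, and the 2 cannot be told apart.

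**Figure D1:**
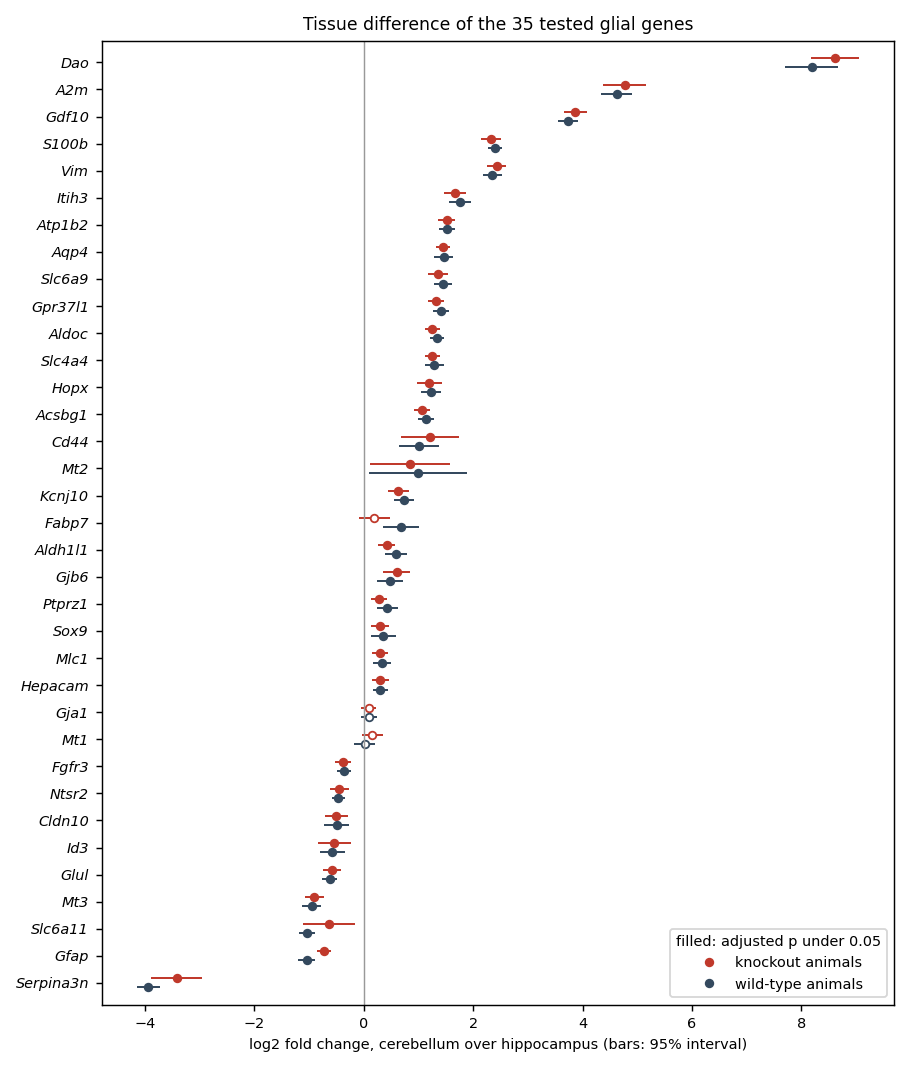
Log2 fold change of cerebellum over hippocampus for the 35 tested genes, in knockout animals (red, upper of each pair) and wild-type animals (dark, lower), 3 animals each; bars are 95% intervals and filled circles have an adjusted p under 0.05. The genes run from Dao at 8.62 and 8.18 to Serpina3n at -3.42 and -3.94, and the paired intervals lie close together for nearly every gene.

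The gene most nearly confined to cerebellum was Dao, D-amino acid oxidase, a peroxisomal enzyme that breaks down D-serine and other D-amino acids and is a known product of Bergmann glia. Dao had 45.4, 50.1 and 54.3 CPM in knockout cerebellum and 55.5, 57.2 and 61.1 CPM in wild-type cerebellum. In hippocampus it had 1, 5 and 4 counts in the knockout libraries and 9, 0 and 6 counts in the wild-type libraries. Over the summed libraries the ratio of cerebellum to hippocampus was 449 in knockout animals (95% counting interval 244 to 936) and 329 in wild-type animals (199 to 588), where the intervals cover counting error only. A2m, the broad-range protease inhibitor alpha-2-macroglobulin, followed with 76.0, 93.6 and 89.2 CPM in knockout cerebellum against 2.94, 4.28 and 2.31 CPM in knockout hippocampus. In wild-type animals A2m had 97.8, 91.2 and 97.3 CPM in cerebellum against 4.60, 4.37 and 2.60 CPM in hippocampus. The edgeR fold changes of A2m were 27.2 (adjusted p = 1.32e-08) and 24.6 (adjusted p = 2.47e-12), and every cerebellum library was above every hippocampus library.

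Gdf10, a secreted ligand of the transforming growth factor beta superfamily and a classical Bergmann glia marker, had 141, 165 and 169 CPM in knockout cerebellum against 11.4, 11.2 and 10.2 CPM in knockout hippocampus. In wild-type animals Gdf10 had 174, 158 and 148 CPM in cerebellum against 11.8, 12.8 and 11.3 CPM in hippocampus, so that its log2 fold change was 3.86 ± 0.09 in knockout and 3.73 ± 0.08 in wild-type animals (SE, 3 animals each). S100b, a calcium-binding protein that astrocytes also secrete, had 313, 373 and 361 CPM in knockout cerebellum against 67.9, 69.3 and 73.6 CPM in knockout hippocampus. In wild-type animals S100b had 353, 348 and 369 CPM in cerebellum and 70.0, 64.1 and 67.5 CPM in hippocampus. The cerebellum was about 5-fold higher for S100b in both genotypes (4.99 and 5.30), with no library of one tissue inside the range of the other. Itih3, which encodes a hyaluronan-binding inter-alpha-trypsin inhibitor heavy chain, had 68.2, 74.0 and 66.6 CPM in knockout cerebellum against 20.0, 21.6 and 24.4 CPM in knockout hippocampus. In wild-type animals Itih3 had 73.7, 71.8 and 73.7 CPM in cerebellum against 18.7, 21.05 and 24.9 CPM in hippocampus. The fold changes of Itih3 were 3.17 and 3.38, again without overlap.

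The intermediate filament genes went opposite ways. Vim encodes vimentin, the filament protein of radial glia that Bergmann glia keep into adulthood, and it had 158, 181 and 179 CPM in knockout cerebellum against 34.0, 32.4 and 30.2 CPM in knockout hippocampus. In wild-type animals Vim had 183.4, 170 and 178 CPM in cerebellum against 34.9, 38.6 and 30.5 CPM in hippocampus, and its fold change was 5.38 in knockout and 5.09 in wild-type animals. Gfap, the filament gene by which reactive astrocytes are usually recognised, was lower in cerebellum, with a log2 fold change of -0.72 ± 0.05 in knockout animals (adjusted p = 1.07e-06) and -1.04 ± 0.06 in wild-type animals (adjusted p = 6.65e-09). Vim is also made by endothelial and meningeal cells, and the summed level of 8 endothelial and pericyte markers was 370 to 397 CPM in knockout cerebellum against 282 to 319 CPM in knockout hippocampus, with all 8 detected. In wild-type animals that sum was 354 to 375 CPM in cerebellum and 325 to 367.5 CPM in hippocampus. The 8 meningeal and fibroblast markers, all detected, summed to 99.4 to 135 CPM in knockout cerebellum against 61.4 to 77.4 CPM in knockout hippocampus, and to 113 to 149 CPM in wild-type cerebellum against 74.7 to 131 CPM in wild-type hippocampus. The part of these cells in the Vim levels was not tested.

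Genes of ion, water and volume balance were all higher in cerebellum, 6 of 6 in each genotype. Atp1b2, the glial sodium pump subunit also known as an adhesion molecule, had 983, 931 and 1056 CPM in knockout cerebellum against 331, 353 and 359 CPM in knockout hippocampus. In wild-type animals Atp1b2 had 1056, 967 and 1044 CPM in cerebellum against 359, 328 and 380 CPM in hippocampus, and the fold changes were 2.86 and 2.87. The water channel gene Aqp4 was 2.73-fold and 2.75-fold higher, and Slc4a4, the sodium bicarbonate cotransporter, 2.39-fold and 2.45-fold higher in knockout and wild-type animals. Smaller differences were found for the inward rectifier potassium channel Kcnj10 (1.55-fold and 1.66-fold), and for Mlc1 (1.23-fold and 1.26-fold) and Hepacam (1.23-fold in both), whose products form one membrane complex of astrocyte end-feet. The junction genes were mixed. Gjb6, which encodes connexin 30, was 1.52-fold and 1.39-fold higher in cerebellum, while the tight junction protein gene Cldn10 was lower, with log2 fold changes of -0.50 in both genotypes. Gja1, the gene of connexin 43, was not called, with log2 fold changes of 0.09 (95% interval -0.04 to 0.21) in knockout animals and 0.10 (-0.03 to 0.23) in wild-type animals.

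Among metabolic enzymes the tissues also differed gene by gene. Aldoc, brain fructose-bisphosphate aldolase, was 2.38-fold higher in cerebellum of knockout and 2.53-fold higher in cerebellum of wild-type animals, and Acsbg1, an acyl-CoA synthetase, 2.09-fold and 2.21-fold. Aldoc is also made by a subset of Purkinje cells, and the 5 Purkinje cell markers, all detected in every group, summed to 5574 to 6947 CPM in knockout cerebellum against 643 to 722 CPM in knockout hippocampus, and to 5728 to 7269 CPM in wild-type cerebellum against 653 to 674 CPM in wild-type hippocampus. The part of Purkinje cells in the Aldoc levels was not tested. Aldh1l1, a folate enzyme used as a general astrocyte marker, was 1.34-fold and 1.501-fold higher. Glul, glutamine synthetase, went the other way, with log2 fold changes of -0.58 in knockout and -0.63 in wild-type animals. Per kilobase of exon, Aldoc led the set in cerebellum, with 462 CPM per kb in knockout and 499 in wild-type animals, followed by Glul with 277 and 263 CPM per kb. In hippocampus Glul led, with 415 CPM per kb in knockout and 404 in wild-type animals, and Aldoc followed with 194.7 and 197 CPM per kb.

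The inhibitory transmitter transporters split as well. Slc6a9, the glycine transporter GlyT1, was 2.56-fold and 2.72-fold higher in cerebellum, whereas Slc6a11, the GABA transporter GAT-3, was lower, with log2 fold changes of -0.63 ± 0.20 in knockout animals and -1.04 ± 0.06 in wild-type animals. In knockout animals this call was lost without library 2 of hippocampus (adjusted p = 0.0787) or of cerebellum (0.0520), and the log2 fold change was -0.41 without cerebellum library 3, -0.90 without cerebellum library 1 and -1.23 without both brainstem-rich cerebellum libraries. The wider error of Slc6a11 in knockout animals came with a wide spread of its cerebellum libraries, described below. Among receptors, Gpr37l1, an orphan receptor of astrocytes and Bergmann glia, was 2.49-fold and 2.65-fold higher in cerebellum, and the receptor-type phosphatase gene Ptprz1 1.21-fold and 1.35-fold. Fgfr3 and the neurotensin receptor gene Ntsr2 were lower, with log2 fold changes of -0.38 and -0.45 in knockout animals and of -0.36 and -0.46 in wild-type animals. Of the transcription regulators, Hopx (2.30-fold and 2.35-fold) and Sox9 (1.23-fold and 1.28-fold) were higher in cerebellum, and Id3 was lower at -0.53 and -0.58 on the log2 scale. Fabp7, the brain fatty acid binding protein of radial and Bergmann glia, was 1.61-fold higher in cerebellum of wild-type animals (adjusted p = 0.00106) and 1.14-fold in knockout animals (adjusted p = 0.172). Cd44, the hyaluronan receptor, was 2.31-fold and 2.01-fold higher, and microglia and other immune cells make it too. The 8 microglial markers, all detected, summed to 124 to 135 CPM in knockout cerebellum against 275 to 304 CPM in knockout hippocampus. In wild-type animals they summed to 109 to 118 CPM in cerebellum against 266 to 313 CPM in hippocampus. The part of microglia in the Cd44 levels was not tested.

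Serpina3n, the secreted serine protease inhibitor used as a sensitive marker of reactive astrocytes, stood at the hippocampal end. It had 5.45, 3.81 and 2.79 CPM in knockout cerebellum against 45.8, 47.3 and 35.8 CPM in knockout hippocampus. In wild-type animals it had 3.09, 2.93 and 2.73 CPM in cerebellum against 46.6, 42.1 and 44.9 CPM in hippocampus. Hippocampus was therefore 10.7-fold higher in knockout animals and 15.3-fold higher in wild-type animals (adjusted p = 3.66e-07 and 5.33e-13), without overlap. Gfap and Serpina3n, the reaction markers that were higher in hippocampus, are both known to respond to the transcription factor STAT3, and their promoters are shown for that reason. The windows run from 250 bases before to 50 after the RefSeq start (GRCm38.p6), at chr11:102897151-102897450 on the minus strand for Gfap and chr12:104406458-104406757 on the plus strand for Serpina3n. Capitals mark the STAT motif TTCNNNGAA, whose letters read the same on either strand.
Gfap: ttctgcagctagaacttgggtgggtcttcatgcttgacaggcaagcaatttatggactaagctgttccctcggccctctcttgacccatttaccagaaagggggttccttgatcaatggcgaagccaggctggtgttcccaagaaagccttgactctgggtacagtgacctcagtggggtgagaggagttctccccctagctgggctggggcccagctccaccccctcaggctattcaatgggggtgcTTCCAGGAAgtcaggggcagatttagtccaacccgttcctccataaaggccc
Serpina3n: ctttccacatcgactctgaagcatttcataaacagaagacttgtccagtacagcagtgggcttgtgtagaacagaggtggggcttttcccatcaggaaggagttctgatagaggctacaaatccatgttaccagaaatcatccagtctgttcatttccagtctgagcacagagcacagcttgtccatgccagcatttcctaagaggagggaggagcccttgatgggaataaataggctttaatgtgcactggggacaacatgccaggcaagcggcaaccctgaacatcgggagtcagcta
The Gfap window held 1 match, over the start site, and the Serpina3n window none. The motif was in 8.3% of all 32851 promoter windows in the table and in 4 of the 41 windows of the 32 glial genes found there (9.76%).

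The 3 metallothionein genes, which encode small metal-binding proteins, are neighbours on chromosome 8 and had 3 different patterns. Mt1 was level between the tissues, with 104, 96.6 and 84.97 CPM in knockout cerebellum against 90.7, 86.2 and 81.3 CPM in knockout hippocampus. In wild-type animals Mt1 had 85.8, 102 and 80.0 CPM in cerebellum against 95.1, 83.6 and 86.1 CPM in hippocampus. The interval of its log2 fold change ran from -0.02 to 0.33 in knockout and from -0.16 to 0.19 in wild-type animals. Mt3, the brain form, was lower in cerebellum, with 48.8, 42.9 and 41.3 CPM in knockout cerebellum against 81.3, 85.5 and 82.6 CPM in knockout hippocampus. In wild-type animals Mt3 had 41.5, 49.4 and 40.1 CPM in cerebellum against 86.8, 80.2 and 86.3 CPM in hippocampus, and the log2 fold changes were -0.90 and -0.95 without overlap of the tissues. Mt2 had only 24, 29 and 24 counts in knockout cerebellum, 25, 48 and 27 in wild-type cerebellum, 16, 12 and 12 in knockout hippocampus and 20, 6 and 14 in wild-type hippocampus. Its tissue difference was called in both genotypes (log2 fold changes 0.84, adjusted p = 0.0410, and 0.99, adjusted p = 0.0470), but with the animal as a block the adjusted p was 0.0698 and 0.0577. Of the 588 exon bases of Mt2 in the GENCODE M21 annotation, 432 lie opposite exons of the antisense gene Gm45774, which had 6 to 27 counts a library, so the low Mt2 counts are uncertain while the strand setting of the counting is not given. Their promoters are shown because Mt1 and Mt2 are the textbook case of induction through metal response elements. The windows are chr8:94178839-94179138 for Mt1, chr8:94172368-94172667 for Mt2 and chr8:94152357-94152656 for Mt3, all GRCm38.p6 on the plus strand. Capitals mark the letters TGCGCNC or TGCACNC on either strand, with overlapping matches allowed.
Mt1: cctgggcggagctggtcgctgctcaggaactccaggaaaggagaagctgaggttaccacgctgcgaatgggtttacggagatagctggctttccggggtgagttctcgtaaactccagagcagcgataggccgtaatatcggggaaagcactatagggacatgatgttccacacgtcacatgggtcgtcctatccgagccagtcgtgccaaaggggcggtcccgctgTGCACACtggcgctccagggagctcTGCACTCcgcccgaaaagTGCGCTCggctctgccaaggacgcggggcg
Mt2: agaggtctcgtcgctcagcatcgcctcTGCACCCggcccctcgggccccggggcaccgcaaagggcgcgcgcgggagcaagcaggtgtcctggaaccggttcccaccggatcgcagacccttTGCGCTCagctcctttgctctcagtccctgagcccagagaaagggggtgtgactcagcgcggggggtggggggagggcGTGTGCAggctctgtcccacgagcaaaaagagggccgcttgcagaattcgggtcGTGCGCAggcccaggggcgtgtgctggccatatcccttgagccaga
Mt3: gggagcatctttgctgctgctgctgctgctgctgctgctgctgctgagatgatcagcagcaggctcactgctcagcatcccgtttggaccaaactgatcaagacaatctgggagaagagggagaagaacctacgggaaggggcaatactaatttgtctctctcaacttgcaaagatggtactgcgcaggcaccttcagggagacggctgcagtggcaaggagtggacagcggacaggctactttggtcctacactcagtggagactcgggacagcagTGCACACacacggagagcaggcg
Mt1 held 3 matches, Mt2 held 4 and Mt3 held 1. The letters were in 25.7% of all promoter windows and in 17 of the 41 windows of the glial genes (41.5%). The other motifs searched on both strands were ACAAT, the SOX core, found in 31% of all windows and 6 of the 41, and TTGGC, the nuclear factor I core, found in 46.7% of all windows and 22 of the 41.

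In cerebellum no glial gene passed the threshold between knockout and wild-type animals, and Gfap had the smallest p of them. Of 35 genes tested, 0 were called by edgeR, against 0.0113% of all genes tested, which is 2 genes. At an unadjusted p under 0.05 there were 5 (14.3%), against 6.77% of all genes. Gfap and Slc6a11 had higher means in knockout cerebellum, where 3.85% of all genes met the same rule, and Fabp7, Dao and Gpr37l1 lower means, where 2.92% did. Knockout and wild-type libraries did not overlap for 6 of the 35 genes (17.1%), 1 higher and 5 lower in the knockouts, against 11.9% of all genes (6.47% higher and 5.4% lower). Of the 35, 12 had a log2 fold change above 0, against 51% of all genes. The median log2 fold change of knockout over wild type was -0.03 over the glial genes and 0.002 over all genes, and the 95% interval lay within a 1.5-fold change either way for 31 of the 35.

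Gfap had 202, 210 and 195.9 CPM in knockout cerebellum, against 176, 162 and 151 CPM in wild-type cerebellum. All 3 knockout libraries were above all 3 wild-type libraries. The log2 fold change was 0.32 ± 0.06 (SE; 95% interval 0.18 to 0.45), which is 1.24-fold, with an edgeR adjusted p of 0.276. Library 3 of knockout cerebellum had the lowest brainstem markers of the 6, 7.53 CPM, and was nearly without choroid plexus transcripts. Its Gfap level of 195.9 CPM was the lowest of the 3 knockout libraries. Without the brainstem-rich knockout libraries, which leaves 1 knockout library, the log2 fold change of Gfap was 0.26. Within each genotype the order of the Gfap levels was that of the brainstem markers, which were 15.2, 10.5 and 10.4 CPM in wild-type cerebellum. The adjusted p was 0.0251 with the replicate number as a block and 8.5e-04 with DESeq2, and leaving out 1 library at a time it ranged from 0.0732 to 0.998 while the log2 fold change stayed between 0.26 and 0.37. Microglial markers were also higher in these knockouts, with a mean log2 CPM over 8 genes of 3.29 to 3.41 in knockout cerebellum and 3.07 to 3.27 in wild-type cerebellum, as were 4 markers of oligodendrocyte precursors, at 4.75 to 4.80 and 4.53 to 4.62. The 8 oligodendrocyte markers had a mean of 7.99 to 8.08 in knockout and 7.87 to 7.97 in wild-type cerebellum, and the 8 endothelial and pericyte markers 4.98 to 5.07 and 4.88 to 4.97. None of these 4 lists overlapped between the genotypes on this scale, and all their markers were detected. The nearest knockout and wild-type libraries were close, at 3.2851 and 3.2719 for microglia, 7.9899 and 7.9739 for oligodendrocytes and 4.9815 and 4.9737 for endothelium and pericytes. Of single genes, 6.47% were higher in knockout cerebellum without overlap, and no such share was computed for lists. The other marker lists, among them those of granule cells, Purkinje cells, ependyma and meninges, did overlap in cerebellum. As summed CPM the endothelial and pericyte markers overlapped too, at 370 to 397 in knockout and 354 to 375 in wild-type cerebellum. The part of these cells and of brainstem tissue in the Gfap level was not tested.

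**Figure D2:**
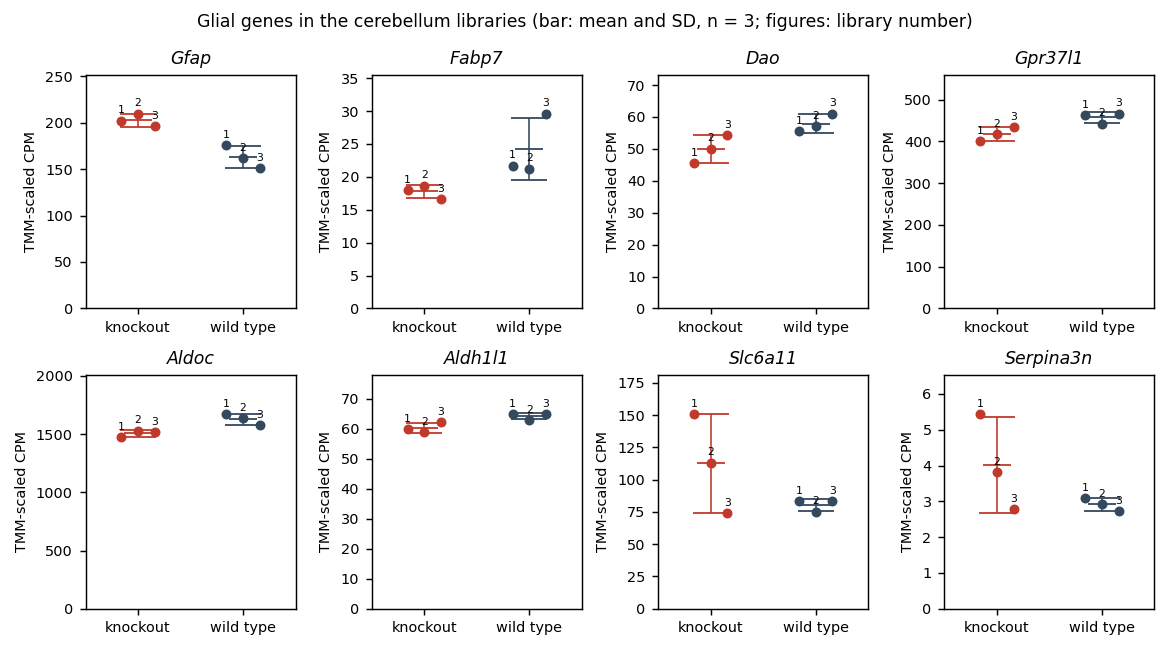
TMM-scaled CPM of 8 glial genes in the 3 knockout (red, left) and 3 wild-type (dark, right) cerebellum libraries; numbers name the library, and the bar gives the mean and SD. The Gfap levels of 195.9 to 210 CPM in the knockouts lie above 151 to 176 CPM in wild type, Aldh1l1 lies below wild type without overlap, and Slc6a11 and Serpina3n spread widely among the knockouts alone.

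Fabp7 was at the other end. It had 17.99, 18.7 and 16.7 CPM in knockout cerebellum, against 21.7, 21.2 and 29.6 CPM in wild-type cerebellum, with a log2 fold change of -0.45 ± 0.12 (adjusted p = 0.612). The groups did not overlap, and the size rested in part on the high wild-type library 3, without which the log2 fold change was -0.27. Dao had 45.4, 50.1 and 54.3 CPM in knockout cerebellum, all under the lowest wild-type value of 55.5 CPM, with a log2 fold change of -0.21 ± 0.07 (adjusted p = 0.645). Without the brainstem-rich libraries the value for Dao was -0.10. Gpr37l1 had 400, 417 and 434 CPM in knockout cerebellum, against 463, 443 and 467 CPM in wild-type cerebellum, and its log2 fold change was -0.13 ± 0.05 (adjusted p = 0.691). Aldoc had 1476, 1531 and 1517 CPM in knockout cerebellum, against 1674, 1634 and 1579 CPM in wild-type cerebellum, and its log2 fold change was -0.11 ± 0.05 (adjusted p = 0.743). For Gpr37l1, Aldoc and Aldh1l1 (-0.09 ± 0.05) the knockouts were lower without overlap by small amounts, and none was called.

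Slc6a11 and Serpina3n had the highest mean fold changes, with 2 of the 3 knockout libraries high. Slc6a11 had 151, 113 and 74.2 CPM in knockout cerebellum, against 83.4, 75.2 and 83.1 CPM in wild-type cerebellum. Serpina3n had 5.45, 3.81 and 2.79 CPM in knockout cerebellum, against 3.09, 2.93 and 2.73 CPM in wild-type cerebellum. In both genes knockout libraries 1 and 2, high in brainstem markers, were above all wild-type libraries and knockout library 3 was not. The coefficient of variation was 34.0% among knockout and 5.79% among wild-type libraries for Slc6a11, and 33.4% and 6.07% for Serpina3n. The log2 fold changes were 0.48 ± 0.19 (adjusted p = 0.708) and 0.46 ± 0.22 (adjusted p = 0.743). They became -0.12 and -0.07 without the brainstem-rich libraries, which leaves knockout library 3 alone, so these values only restate its levels. That library was also nearly without choroid plexus transcripts. Both genes were higher in knockout library 1 than in library 2, while the brainstem markers were lower in library 1 (31.9 against 50.1 CPM). Without knockout library 3 alone Slc6a11 was called (log2 fold change 0.72, edgeR adjusted p = 0.0315). The part of brainstem tissue in these levels was not tested.

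**Figure D3:**
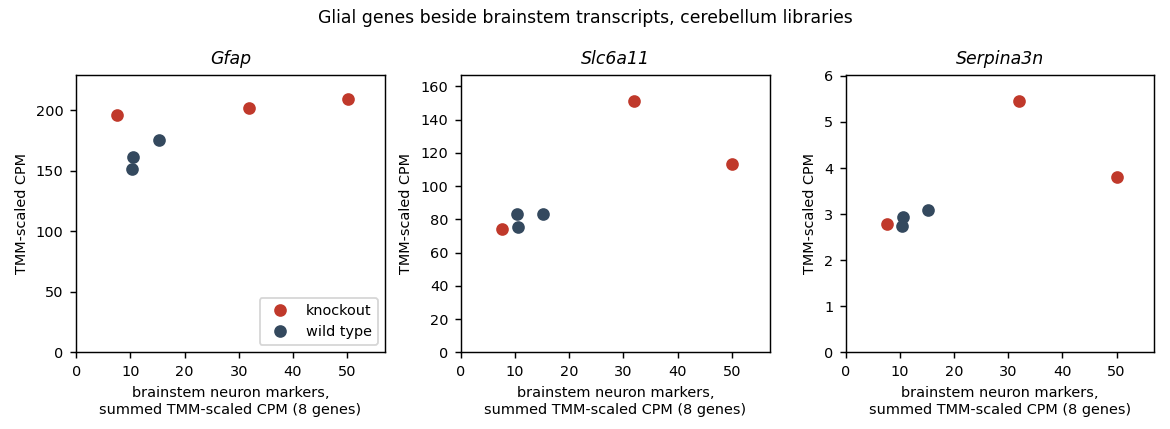
Level of Gfap, Slc6a11 and Serpina3n (vertical axes, TMM-scaled CPM) against the summed level of 8 brainstem neuron markers (horizontal axes) in the 3 knockout (red) and 3 wild-type (dark) cerebellum libraries. The Slc6a11 and Serpina3n levels of the knockout library at 7.53 CPM of brainstem markers lie beside the wild-type libraries. Its Gfap level of 195.9 CPM lies above them and is the lowest of the 3 knockout libraries. The part of brainstem tissue was not tested.

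Other cerebellar values were close to wild type. The 6 genes of ion, water and volume balance had log2 fold changes from -0.06 to 0.04, the 3 junction genes from -0.03 to 0.10 and the 3 transcription regulators from -0.05 to -0.03. Gdf10 and S100b, among the genes with the strongest cerebellar bias, had -0.01 ± 0.08 and -0.03 ± 0.06, and A2m had -0.14 ± 0.07. The metallothioneins Mt1 and Mt3 had 0.09 ± 0.10 and 0.02 ± 0.09. The 4 genes whose interval reached past 1.5-fold were Slc6a11, Serpina3n, Fabp7 and the scarcely counted Mt2, and for these a 1.5-fold change lies inside the interval.

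In hippocampus no glial gene passed the threshold either. Of 34 genes tested (Dao and Lcn2 had too few counts), 0 were called by edgeR, as were 0% of all 17693 genes, 0 had an unadjusted p under 0.05, against 4.34% of all genes, and 0 had groups without overlap, against 9.81%. DESeq2 called none of them either. The median log2 fold change was 0.003 over the glial genes and 0.002 over all genes, and the 95% interval lay within 1.5-fold for 31 of 34; the exceptions were A2m, Cd44 and Mt2. Gfap had 341, 328 and 338 CPM in knockout hippocampus, against 357, 324 and 325 CPM in wild-type hippocampus. Its log2 fold change was 0.003 with a 95% interval from -0.10 to 0.10, and Serpina3n had -0.05 (-0.25 to 0.15).

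The 6 hippocampal genes with the smallest p-values all had groups that overlapped. Fgfr3, a receptor for fibroblast growth factors, had 124, 113 and 129 CPM in knockout hippocampus, against 112, 121 and 112 CPM in wild-type hippocampus, a log2 fold change of 0.09 ± 0.06. Gdf10 had 11.4, 11.2 and 10.2 CPM in knockout hippocampus against 11.8, 12.8 and 11.3 CPM in wild-type hippocampus, or -0.13 ± 0.10. Slc6a11 had 165, 197 and 164 CPM in knockout hippocampus against 168, 151 and 175 CPM in wild-type hippocampus, or 0.09 ± 0.07. The Slc6a11 value rested on knockout library 2, without which it was -0.0026. S100b had a log2 fold change of 0.07 ± 0.05 and Vim of -0.11 ± 0.09, with the library levels given in the tissue comparison. Aqp4 had 172, 175 and 164 CPM in knockout hippocampus against 174, 153 and 164 CPM in wild-type hippocampus, or 0.06 ± 0.05. The adjusted p was 0.995 for each of the 6.

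**Figure D4:**
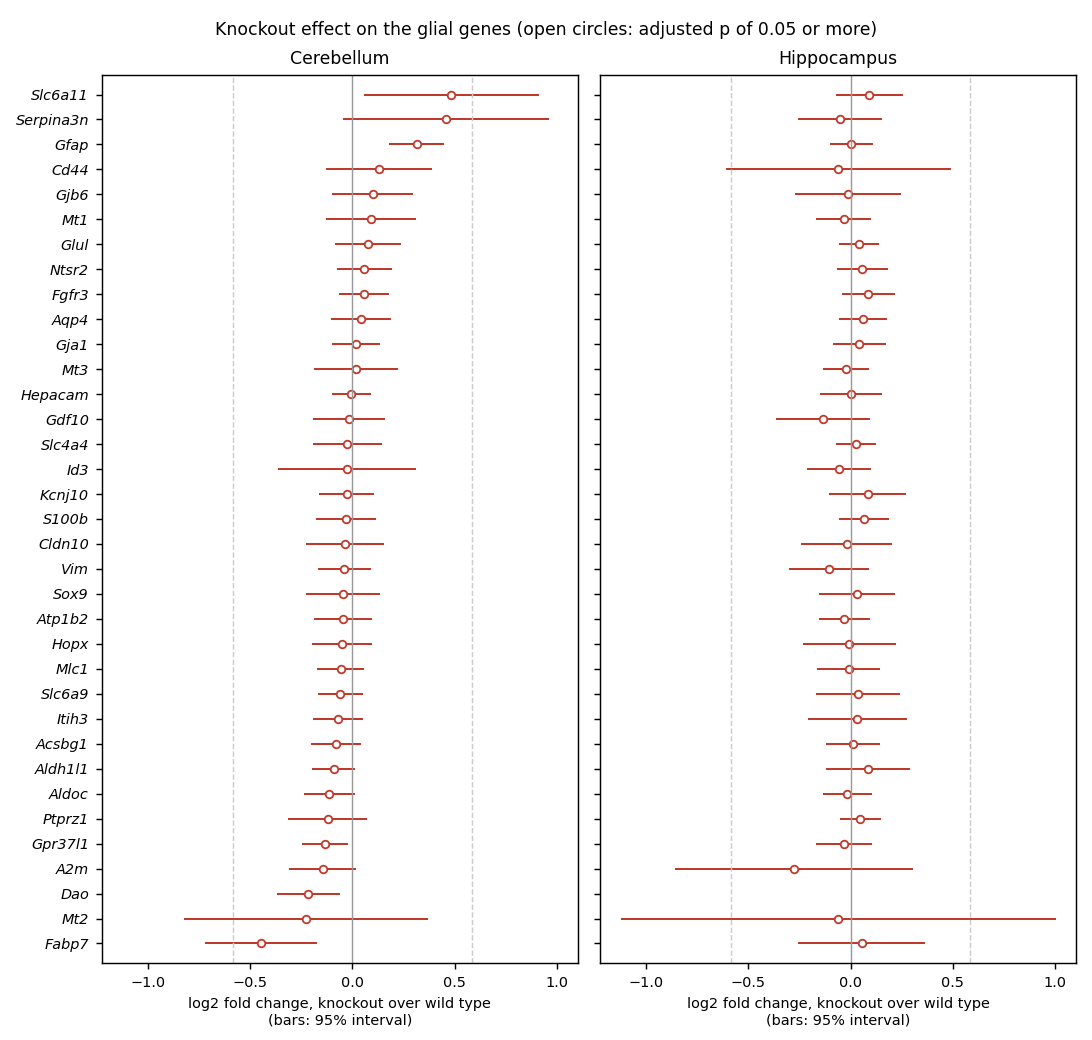
Log2 fold change of knockout over wild type with 95% intervals for the glial genes in cerebellum (left) and hippocampus (right), 3 animals per genotype, ordered by the cerebellar value; dashed lines mark a 1.5-fold change. No gene passes the threshold in either tissue, Gfap at 0.32 in cerebellum has an interval clear of 0, and its hippocampal value is 0.003.

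The difference between tissues in the knockout effect was tested directly as an interaction over all 12 libraries, again without the pairing by animal. None of the 36 genes was called, against 0.0105% of all genes, by DESeq2 none either, and 2 of 36 had an unadjusted p under 0.05, against 5.34% of all genes. Gfap had the smallest p, with a difference of cerebellum minus hippocampus of 0.31 ± 0.08 on the log2 scale (unadjusted p = 0.00147, adjusted p = 0.729). Fabp7 had -0.50 ± 0.21 (adjusted p = 0.918), Serpina3n 0.51 ± 0.24 and Slc6a11 0.39 ± 0.24. Those of Serpina3n and Slc6a11 became -0.002 and -0.20 without the brainstem-rich libraries.

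Lcn2, lipocalin 2, an acute-phase protein that reactive astrocytes release after systemic inflammation, was near 0 in most libraries and was looked at after its values were seen. Its counts were 3, 67 and 3 in knockout cerebellum, 3, 19 and 2 in wild-type cerebellum, 1, 34 and 0 in knockout hippocampus and 0, 31 and 2 in wild-type hippocampus. In each group the high library was number 2, which is 1 knockout and 1 wild-type animal, and both tissues of those animals were high. In CPM the high libraries had 2.28 in knockout cerebellum, 0.511 in wild-type cerebellum, 1.202 in knockout hippocampus and 1.18 in wild-type hippocampus, while the other 8 did not exceed 0.119. Gfap was not set apart in the same animals: among knockout cerebellum libraries number 2 was the highest of 3 by a small margin, and in hippocampus number 2 was the lowest in both genotypes.

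**Figure D5:**
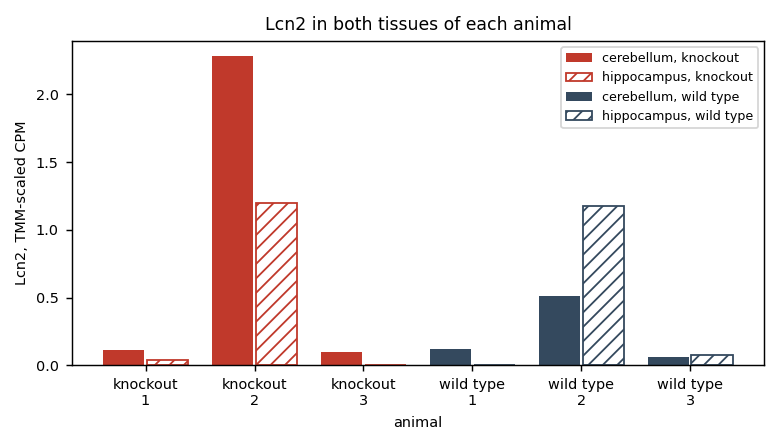
Lcn2 level in TMM-scaled CPM in cerebellum (filled) and hippocampus (hatched) of each of the 3 knockout (red) and 3 wild-type (dark) animals; each bar is 1 library. Animal 2 of each genotype is high in both tissues, with 2.28 and 1.202 CPM in the knockout and 0.511 and 1.18 CPM in the wild type.

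The further lists are read against the same background of 64.1% of all genes called between the tissues in knockout and 66.1% in wild-type animals. Of 30 further astrocyte genes, 18 were higher and 8 lower in cerebellum in knockout animals (86.7% called), and 17 and 8 in wild-type animals (83.3%). Of 8 further genes of Bergmann glia and the cerebellar glial lineage, 6 were higher and 1 lower in knockout animals, and 7 and 1 in wild-type animals. The leading ones were Ptch1, the receptor of Sonic hedgehog, at 291 ± 8.85 CPM in knockout cerebellum against 70.2 ± 4.52 CPM in knockout hippocampus, and Timp4, a metalloproteinase inhibitor, at 139 ± 6.89 CPM in knockout cerebellum against 32.4 ± 2.98 CPM in knockout hippocampus (SD, n = 3 each). Further reaction genes were mixed, with 13 of 27 higher and 6 lower in knockout animals, and 9 and 10 of 28 in wild-type animals; these are 70.4% and 67.9% of the genes tested, close to the share over all genes. B3gnt5, a glycosyltransferase gene, led upward in cerebellum (log2 fold change 4.60 in knockout and 4.46 in wild-type animals), while Ptgs2, the cyclooxygenase 2 gene that hippocampal neurons also make, was lowest (-4.67 and -5.20).

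Between genotypes none of these lists held a gene called in the main edgeR test of either tissue. With the replicate number as a block C4b and Tnc were called in cerebellum (edgeR adjusted p = 0.0251 and 0.0205). DESeq2 called both as well (1.57e-04 and 1.08e-04), and no listed gene was called in hippocampus by either. For the difference between tissues, edgeR called no listed gene in the main test or with the animal as a block, and DESeq2 called C4b. With no filter on low counts edgeR called C4b and Tnc for that difference, and C4b without knockout cerebellum library 3 or wild-type hippocampus library 1. In cerebellum edgeR also called C4b in a fit of all 12 libraries (adjusted p = 0.0323). With no filter on low counts it called C4b, Tnc and Itpripl1 there. In cerebellum the median log2 fold change of knockout over wild type was -0.02 for the further astrocyte genes, -0.10 for the Bergmann glia genes, where 0 of 8 were above 0, and 0.05 for the reaction genes, where 20 of 28 were, beside 0.002 over all genes, of which 51% were above 0. The smallest p-values were those of C4b and Tnc. C4b, complement component 4, had 19.1, 19.8 and 20.2 CPM in knockout cerebellum, against 13.5, 13.03 and 13.6 CPM in wild-type cerebellum, a log2 fold change of 0.56 ± 0.07 with an adjusted p of 0.0559. The C4b groups did not overlap. Leaving out 1 library at a time, its adjusted p ranged from 0.0451, without knockout library 3, to 0.362. Tnc, the matrix protein tenascin C, averaged 11.2 ± 1.22 CPM in knockout cerebellum and 18.3 ± 2.47 CPM in wild-type cerebellum (SD, n = 3 each), with a log2 fold change of -0.70 ± 0.11 (adjusted p = 0.217, or 0.0451 without knockout library 3). In hippocampus the medians were 0.01, 0.05 and -0.11 for the same lists, with 19 of 30, 7 of 8 and 7 of 26 genes above 0 against 50.8% of all genes. There C4b ranged from 42.4 to 46.0 CPM in knockout and from 41.2 to 52.4 CPM in wild-type animals.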

How the data were processed

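Polyadenylated RNA was sequenced from Trizol extracts as dUTP strand-specific libraries, per the labels' protocols. The authors deposited raw read counts per Ensembl gene, 1 table per tissue. Trimmomatic 0.39, STAR 2.7.10, featureCounts 2.0.3 and mm10/GRCm38 are named in the submitters' processing notes; the strand setting and annotation release are not stated there. Nothing states how animals were bred or collected. Identifiers were matched to GENCODE M21 (54409 of 54446), and the members and lists were chosen with earlier results of these data known.

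The deposited counts were tested with edgeR 4.0.16 (filterByExpr, minimum count 10 and total 15, TMM) in R 4.3.3 over all genes; SE and intervals come from its F statistic. Libraries of a group differed by a chi-square of 3.91 to 11.6 per gene, so none is a duplicate. Deviations from the group mean in same-numbered knockout and wild-type libraries had correlations of 0.118, 0.216 and 0.304 in cerebellum and of -0.008, 0.018 and 0.110 in hippocampus. Pairs of unlike number had correlations of -0.294 to 0.085 in cerebellum and of -0.075 to 0.059 in hippocampus. Deviations within a group depend on each other, so these correlations are not independent. The labels do not say that a replicate number joins a knockout with a wild-type animal. Tissues pair by animal, but the main tissue and interaction tests did not use this pairing, and the animal as a block was an alternative. The p-values between genotypes measure the spread among 3 animals a genotype. Named genes were the 8 with the largest change where over 8 were called, otherwise the 6 with the smallest p, with Serpina3n, Lcn2, the metallothioneins and hippocampal Gfap added after values were seen. Alternatives were DESeq2 1.42.0, limma-voom 3.58.1, other scaling, filters, blocks and samples. The scripts were tested on simulated counts.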

Additional observations from a re-analysis of the deposited data

How the results depend on the processing

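The glial genes called in cerebellum between genotypes numbered 0, but 1 with DESeq2 (Gfap), 1 with the replicate block (Gfap, adjusted p = 0.0251), 5 with no filter on low counts (Gfap, Fabp7, Dao, Slc6a11 and Lcn2) and 0 to 1 leaving out 1 library at a time. Over all genes, the 2 calls there became 38 with DESeq2, 417 with no filter, 36 with the replicate block, 4 in a fit of all 12 libraries, 64 without the brainstem-rich knockout libraries (a setting chosen after seeing the data, which leaves 1 knockout library assumed to vary like the others) and 2 to 33 leaving out 1 library, 33 being without knockout library 3. In hippocampus the 0 calls over all genes became 4 with DESeq2, 77 with no filter, 2 with the replicate block and 0 to 2 leaving out 1 library, none of them a glial gene. For the difference between tissues, the 2 calls became 11 with DESeq2, 275 with no filter, 24 without the brainstem-rich libraries and 2 to 44 leaving out 1 library, 44 being without knockout cerebellum library 3; glial genes were called only with no filter (3: Gfap, Fabp7 and Slc6a11). Tissue calls of glial genes ranged from 30 to 33 in knockout and 32 to 33 in wild-type animals leaving out 1 library, and from 10840 to 11378 and 11360 to 11601 over all genes. The log2 value of Slc6a11 in hippocampus was -0.0026 without knockout library 2 and otherwise up to 0.137 leaving out 1 library; without the brainstem-rich libraries the cerebellar values of Slc6a11 and Serpina3n were -0.124 and -0.0695 and their differences between tissues -0.201 and -0.0015. The tissue call of Slc6a11 in knockout animals was lost without knockout library 2 of hippocampus (adjusted p = 0.0787) or of cerebellum (0.0520), and that of Mt2 under 6 settings in wild-type and 10 in knockout animals. Between genotypes the replicate block changed no other call of a glial gene. With the animal as a block the Mt2 tissue call was lost in both (edgeR adjusted p = 0.0577 in wild-type and 0.0698 in knockout animals). The Lcn2 call in cerebellum with no filter came from counts of 3, 67 and 3 in the knockouts and 3, 19 and 2 in wild type. The edgeR adjusted p of Slc6a11 was 9.2e-15 with no filter, against 0.708 in the main test. Its coefficient of variation among knockout cerebellum libraries was 34.0%. The cause of these changes in calls was not tested.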
